A study of Mus musculus with 48 samples.

Results

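Genes of dendritic cell maturation and migration, 8 in all, were followed through sorted immune cells of mouse colon tumours. They are Ccr7, Fscn1, Cd83, Il4i1, Ramp3, Tbc1d4, Serpinb6b and Plet1, taken by symbol from a count table with 24537 rows that name a gene, so that the 8 members make up 8 of 24537 rows. Cells were sorted by the surface proteins Ly6C and MHC class II into 4 populations, Ly6Clo MHCIIhi, Ly6Chi MHCIIhi, Ly6Clo MHCIIlo and Ly6Chi MHCIIlo. Each population was taken from mice labelled ko and from mice labelled ctrl, where the series' design names the chemokine gene Ccl17 as the one knocked out. All groups received AOM, the carcinogen azoxymethane, with DSS, a detergent-like sulfated sugar that inflames the colon, and all are labelled day 85. The sources used here give neither the ko allele nor the animals' age. The series names ko mice housed together with control mice and ko mice housed apart, and the housing of a single sample is not labelled.

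A dendritic cell that has taken up antigen can mature: it stops sampling, shows more MHC class II and costimulatory proteins, and travels in lymph to the draining lymph node. CCR7 is the chemokine receptor that steers this travel towards CCL19 and CCL21, and fascin, the product of Fscn1, bundles actin into the long dendrites of the mature cell. CD83 is a surface protein of mature dendritic cells that holds MHC class II and CD86 at the membrane, and IL4I1 is a secreted enzyme that oxidises phenylalanine. RAMP3 pairs with the calcitonin receptor-like receptor to form a receptor for adrenomedullin, and PLET1 is a surface protein held by a lipid anchor. SERPINB6B belongs to the intracellular serine protease inhibitors, and TBC1D4 switches off Rab GTPases, a role best known from glucose transporter traffic in muscle and fat.

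The 8 genes lie at chr11:99144196-99155077 (Ccr7, minus strand), chr5:142960343-142973185 (Fscn1, plus strand), chr13:43784775-43803132 (Cd83, plus strand) and chr7:44816387-44840809 (Il4i1, plus strand). Ramp3 lies at chr11:6658521-6677475 (plus strand), Tbc1d4 at chr14:101442360-101609191 (minus strand), Serpinb6b at chr13:32965209-32979067 (plus strand) and Plet1 at chr9:50494525-50505482 (plus strand). These positions are from GENCODE release M21 on GRCm38, and all 8 genes are protein-coding there. Il4i1 shares its span with Nup62, Atf5 and Tbc1d17, Tbc1d4 with Gm34417, Ramp3 with Gm11978 on the other strand and Plet1 with Plet1os on the other strand. Whole gene spans were compared here and not exons, and the sources used here do not say whether counting used the strand. Whether reads of these overlapping genes were told apart is therefore not known. Serpinb6b has close relatives in the same gene cluster, and its counts are uncertain to that extent.

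The stretches upstream of Il4i1, Ramp3 and Serpinb6b are shown because these 3 genes hold the letters GAGGAAG, a binding motif of PU.1, the factor of the myeloid lineage. Each run gives the 250 bases before the RefSeq start (GRCm38.p6), 5′ to 3′ on the gene's strand, and capitals mark GAGGAAG or its reverse complement CTTCCTC. By GENCODE the Il4i1 run lies inside the gene's span, since the RefSeq start is downstream of the GENCODE one. The runs lie at chr7:44836038-44836287 (Il4i1, plus strand), chr11:6658283-6658532 (Ramp3, plus strand) and chr13:32965011-32965260 (Serpinb6b, plus strand).
Il4i1: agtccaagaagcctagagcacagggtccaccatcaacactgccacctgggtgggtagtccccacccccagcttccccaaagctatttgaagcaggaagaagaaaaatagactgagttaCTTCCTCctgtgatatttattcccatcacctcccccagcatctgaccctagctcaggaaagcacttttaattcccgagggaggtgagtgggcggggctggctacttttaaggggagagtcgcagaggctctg
Ramp3: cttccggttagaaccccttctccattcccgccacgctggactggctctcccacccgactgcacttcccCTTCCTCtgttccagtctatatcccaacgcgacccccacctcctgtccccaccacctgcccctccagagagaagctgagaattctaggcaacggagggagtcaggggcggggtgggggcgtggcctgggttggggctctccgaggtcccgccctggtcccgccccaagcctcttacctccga
Serpinb6b: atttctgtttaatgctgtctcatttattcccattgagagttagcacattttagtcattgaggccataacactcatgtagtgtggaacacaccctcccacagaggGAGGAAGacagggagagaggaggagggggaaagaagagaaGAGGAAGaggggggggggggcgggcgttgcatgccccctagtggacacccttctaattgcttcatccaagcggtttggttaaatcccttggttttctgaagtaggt

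RefSeq's promoter table matched 6 of the 8 members, namely Fscn1, Il4i1, Ramp3, Tbc1d4, Serpinb6b and Plet1. Ccr7 and Cd83 were not matched. In those 6 runs, both strands were searched for 5 motifs. They were the letters GAGGAAG of PU.1, the letters TGANTCA of AP-1, a long and a short form of the NF-kB motif, and the core of the interferon-stimulated response element. GAGGAAG was found in 3 of the 6 runs, at -132 to -126 from the start of Il4i1, at -182 to -176 for Ramp3, and at -146 to -140 and -106 to -100 for Serpinb6b. Of all 32851 promoters of the table, taken at the same length, 10.6% hold GAGGAAG. Plet1 alone held TGANTCA, at -144 to -138, and 6.75% of promoters hold it. No run held the long NF-kB form (in 1.41% of promoters), the short one (4.99%) or the interferon core (2.98%), and no 2 of the matches overlapped.

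The 48 libraries held 8409 to 500687 counts each. One library under 28006.25 counts, 0.1 of the median, was left out, and the 2 libraries of a replicate were summed in 8 replicates of Ly6Clo MHCIIhi, which left 39 replicates of 34362 to 891461 counts. Ly6Clo MHCIIhi had 8 ko and 8 ctrl replicates, Ly6Chi MHCIIhi 4 ko and 3 ctrl, and each MHCIIlo population 4 ko and 4 ctrl. Whether a replicate is its own animal is not labelled, and the p-values cover only the spread from sample to sample, which may be technical. Levels are counts per 1000000 of a replicate's total (CPM), where that total was first adjusted by edgeR's TMM scaling factor. Of the sort markers, Ly6c2 averaged 525 ± 199 CPM in Ly6Chi MHCIIhi and 1191 ± 259 CPM in Ly6Chi MHCIIlo, against 25.7 ± 19.5 CPM in Ly6Clo MHCIIhi and 43.5 ± 15.8 CPM in Ly6Clo MHCIIlo (SD, n = 7, 8, 16 and 8). Cd74, the invariant chain of MHC class II, ran from 11485 to 15298 CPM in Ly6Clo MHCIIhi and from 3630 to 14360 CPM in Ly6Chi MHCIIhi, against 1936 to 3373 CPM in Ly6Clo MHCIIlo and 1151 to 2392 CPM in Ly6Chi MHCIIlo. Ly6Chi MHCIIhi ctrl replicate 1 stood apart. It had the lowest Cd74 of its population, close to the highest MHCIIlo replicate, and a summed level of 8 neutrophil markers of 57229 CPM, where the other 6 replicates of that population had 474 to 1679 CPM. Its 8 B cell markers summed to 916 CPM, where the other 6 replicates had 0 to 53.7 CPM. Without that replicate, 5 members were again called in Ly6Clo MHCIIhi against Ly6Chi MHCIIhi. Over the fits of that comparison with 1 replicate left out, 687 to 1004 of all genes were called.

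Ccl17 itself had a lowest level of 0, a median of 3.41 and a highest of 6.72 CPM in the 8 ko replicates of Ly6Clo MHCIIhi, against 0, 56.0 and 775 CPM in the 8 ctrl replicates. The ranges of ko and ctrl overlapped, since 3 ctrl replicates lay at or under the highest ko one. In the other 3 populations ko replicates had 0 to 14.6 CPM of Ccl17 and ctrl replicates 0 to 33.3 CPM, with at most 7 counts per replicate.

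Of the 8 members, all but Tbc1d4 had their highest mean in Ly6Clo MHCIIhi. Against Ly6Chi MHCIIhi, 5 of the 8 members were higher in Ly6Clo MHCIIhi and 3 did not pass the test, where 8.32% of all 5541 genes tested were higher, 7.42% lower and 15.7% called in either direction. Against Ly6Clo MHCIIlo, 7 of the 8 were higher, where 12.5% of 4817 genes were higher, 13% lower and 25.5% called in either direction, and Tbc1d4 did not pass. Against Ly6Chi MHCIIlo, all 8 were higher, where 20.9% of 5702 genes were higher, 21.7% lower and 42.6% called in either direction. None of the 8 was lower in Ly6Clo MHCIIhi in these 3 comparisons. Fscn1 and Serpinb6b were under the count filter in every comparison without Ly6Clo MHCIIhi, and 6 of the 8 were under it between the MHCIIlo populations. Those 6 were all members but Cd83 and Tbc1d4, and Tbc1d4 was under it between the Ly6Chi populations. A gene that passed the filter only through its level in the higher group had to differ. These counts and medians, and the adjusted p-values of such genes below, are therefore a description. The median log2 fold change of the 8 members was 1.497, 2.44 and 2.18 in that order, beside 0.02, -0.00 and -0.01 over all genes tested, and each value is a log2 ratio of levels from edgeR's quasi-likelihood fit. In bulk samples, fewer cells of a type and less RNA per cell cannot be told apart.

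**Figure D1:**
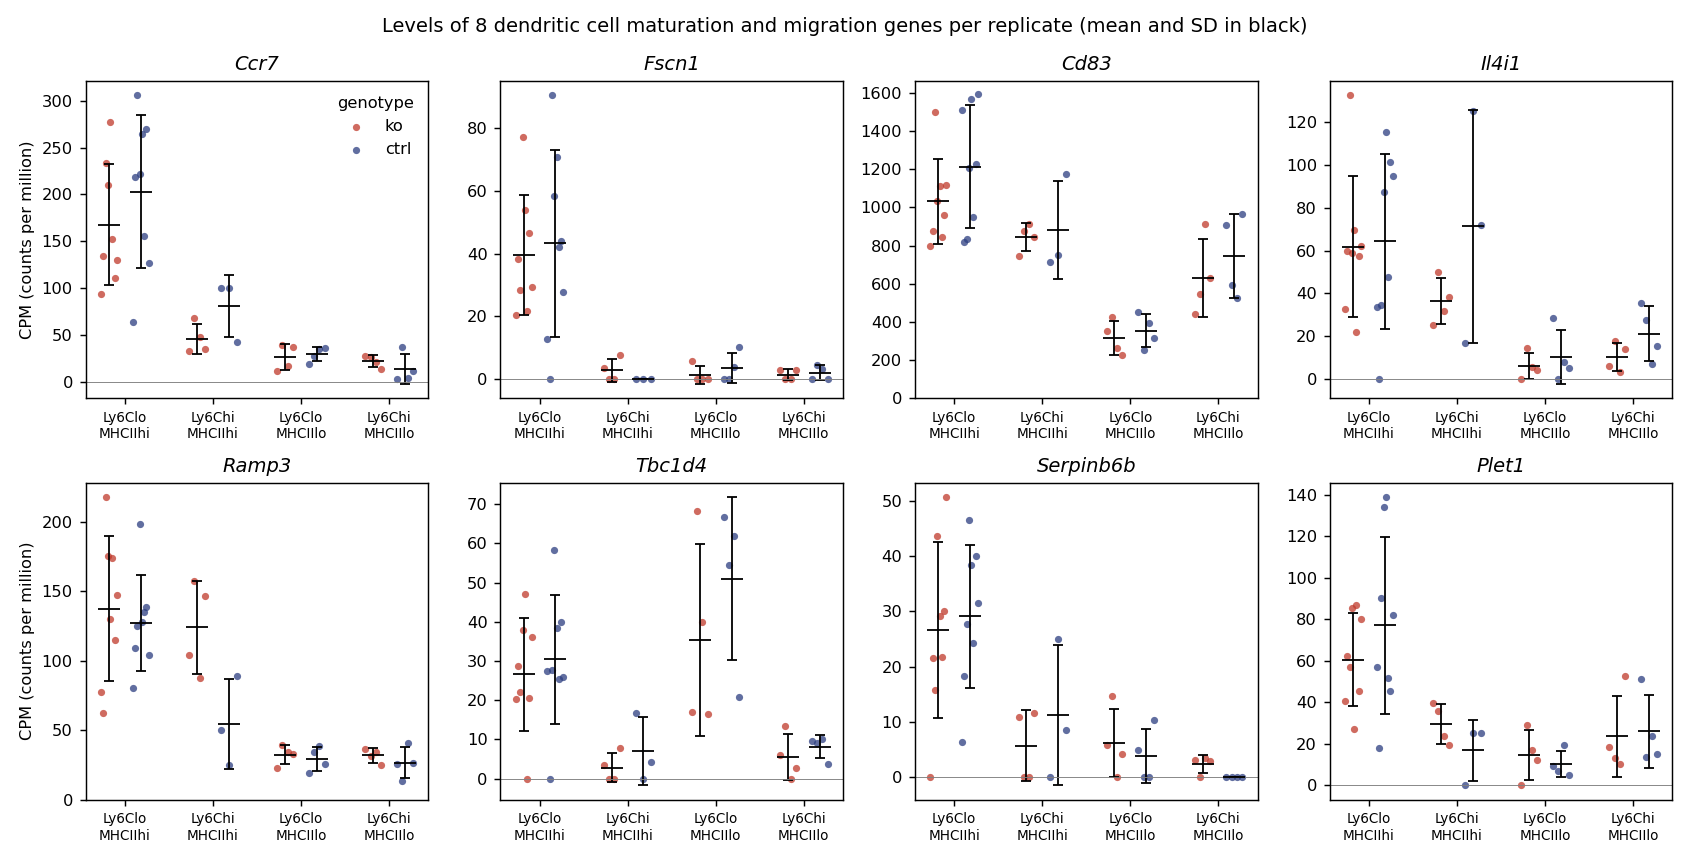
Level of each gene in CPM (linear axes) in every replicate of the 4 populations, with ko (red) left of ctrl (blue) and the mean with SD in black. Fscn1 sits near 0 outside Ly6Clo MHCIIhi, Ramp3 and Il4i1 are high in both MHCIIhi populations, and Tbc1d4 is high in both Ly6Clo populations.

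Ccr7, the receptor for lymph node homing, had a lowest level of 63.2, a median of 183 and a highest of 306 CPM over the 16 replicates of Ly6Clo MHCIIhi. The other populations had 32.3, 47.7 and 100.2 CPM in the 7 replicates of Ly6Chi MHCIIhi, 11.3, 31.1 and 39.0 CPM in the 8 of Ly6Clo MHCIIlo, and 3.21, 17.2 and 36.8 CPM in the 8 of Ly6Chi MHCIIlo. Every replicate of Ly6Clo MHCIIhi lay above every replicate of both MHCIIlo populations, and 14 of 16 lay above the highest of Ly6Chi MHCIIhi. In Ly6Clo MHCIIhi the log2 fold change of Ccr7 was 1.79 ± 0.32 (SE) against Ly6Chi MHCIIhi (adjusted p = 0.000215), 2.68 ± 0.31 against Ly6Clo MHCIIlo (adjusted p = 2.06e-07) and 3.38 ± 0.35 against Ly6Chi MHCIIlo (adjusted p = 2.53e-09). Ly6Chi MHCIIhi came second in the order of means. Its log2 fold change over Ly6Chi MHCIIlo was 1.57 ± 0.43 (adjusted p = 0.0488) and over Ly6Clo MHCIIlo 0.94 ± 0.34 (adjusted p = 0.0499). Both values lie just under the threshold of 0.05, and leaving out 1 replicate ended the first call in 12 of 15 cases and the second in 9 of the 14 cases where Ccr7 passed the count filter. Without the replicate high in neutrophil markers, the first log2 fold change was 1.40 (adjusted p = 0.0633) and the second 0.80 (adjusted p = 0.0892). Between the MHCIIlo populations Ccr7 was under the count filter, so its adjusted p-values against either of them are a description.

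Fscn1, the actin bundler, was rare outside Ly6Clo MHCIIhi. It had a lowest level of 0, a median of 40.1 and a highest of 90.3 CPM there, with a count above 0 in 15 of 16 replicates and 370 counts in all. Ly6Chi MHCIIhi held 3 counts of Fscn1 in its 7 replicates, Ly6Clo MHCIIlo 4 counts in 8 and Ly6Chi MHCIIlo 4 counts in 8, with highest levels of 7.70, 10.4 and 4.61 CPM. The 15 replicates with a count all lay above the highest replicate of each other population, and the replicate at 0, ctrl replicate 2, was shallow, with 51630 counts. As a ratio of summed counts per total, Fscn1 was 21.1 times as high as in Ly6Chi MHCIIhi (95% counting interval 7.15 to 103), 18.4 times as high as in Ly6Clo MHCIIlo (7.11 to 67.7) and 28.1 times as high as in Ly6Chi MHCIIlo (10.9 to 104). The adjusted p was 7.1e-05, 1.05e-05 and 8.32e-08 in that order. Among the other 3 populations Fscn1 was under the count filter in every comparison. Fscn1 thus entered the tests only through its level in Ly6Clo MHCIIhi, and its adjusted p-values are a description.

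Plet1, the anchored surface protein, had a lowest level of 18.2, a median of 59.6 and a highest of 139 CPM in Ly6Clo MHCIIhi. It had 0, 25.0 and 39.5 CPM in Ly6Chi MHCIIhi, 0, 11.0 and 29.3 CPM in Ly6Clo MHCIIlo, and 10.3, 16.8 and 52.6 CPM in Ly6Chi MHCIIlo. The ranges overlapped in all 3 comparisons, with 14, 14 and 10 of the 16 replicates of Ly6Clo MHCIIhi above the highest of the other population. Plet1 had a log2 fold change of 1.20 ± 0.36 over Ly6Chi MHCIIhi (adjusted p = 0.0208), 2.36 ± 0.39 over Ly6Clo MHCIIlo (adjusted p = 4.83e-05) and 1.35 ± 0.32 over Ly6Chi MHCIIlo (adjusted p = 0.000981). The first of these calls was lost without libraries under 100000 counts (1.06, adjusted p = 0.0576), without Ly6Chi MHCIIhi ctrl replicate 4 (1.10, adjusted p = 0.0721) and without Ly6Chi MHCIIhi ko replicate 4 (1.12, adjusted p = 0.0568). Between Ly6Chi MHCIIhi and Ly6Chi MHCIIlo, the log2 fold change was 0.07 with a 95% interval of -0.84 to 0.98. Plet1 was under the count filter between the MHCIIlo populations and for ko against ctrl in Ly6Chi MHCIIhi. Its adjusted p-values for Ly6Clo MHCIIhi are therefore a description.

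Serpinb6b, the protease inhibitor, had a lowest level of 0, a median of 28.5 and a highest of 50.8 CPM in Ly6Clo MHCIIhi. The same 3 values were 0, 8.47 and 25.0 CPM in Ly6Chi MHCIIhi, 0, 4.45 and 14.6 CPM in Ly6Clo MHCIIlo, and 0, 0 and 3.43 CPM in Ly6Chi MHCIIlo. Of the 16 replicates of Ly6Clo MHCIIhi, 9 lay above every replicate of Ly6Chi MHCIIhi, 14 above every one of Ly6Clo MHCIIlo and 15 above every one of Ly6Chi MHCIIlo. The log2 fold change was 2.03 ± 0.57 over Ly6Chi MHCIIhi (adjusted p = 0.0132) and 2.51 ± 0.54 over Ly6Clo MHCIIlo (adjusted p = 0.000992). In 12 of 24 fits against Ly6Clo MHCIIlo that left out 1 replicate, Serpinb6b fell under the count filter and gave no value. Ly6Chi MHCIIlo held 3 counts of Serpinb6b in all, and the ratio of counts per total was 25.1 (95% counting interval 8.49 to 123, adjusted p = 1.05e-06 from edgeR's test). Serpinb6b passed the count filter only through its level in Ly6Clo MHCIIhi, so its adjusted p-values are a description.

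Cd83, the MHC class II stabiliser, was present in every replicate of every population. It had a lowest level of 800.0, a median of 1074 and a highest of 1595 CPM in Ly6Clo MHCIIhi, against 716, 843 and 1177 CPM in Ly6Chi MHCIIhi. Ly6Chi MHCIIlo had 439, 611 and 964 CPM, and Ly6Clo MHCIIlo the least, with 227, 334 and 453 CPM. Ly6Clo MHCIIlo therefore overlapped neither MHCIIhi population, and it overlapped Ly6Chi MHCIIlo only at its upper end. Cd83 in Ly6Clo MHCIIhi had a log2 fold change of 1.75 ± 0.15 over Ly6Clo MHCIIlo (adjusted p = 4.65e-10) and 0.70 ± 0.15 over Ly6Chi MHCIIlo (adjusted p = 0.000322). Over Ly6Chi MHCIIhi it was 0.35, with an interval of 0.05 to 0.64 and an adjusted p of 0.107.

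Il4i1, the secreted oxidase, had a lowest level of 0, a median of 59.4 and a highest of 133 CPM in Ly6Clo MHCIIhi, against 16.7, 38.5 and 125 CPM in Ly6Chi MHCIIhi. It had 3.43, 14.5 and 35.3 CPM in Ly6Chi MHCIIlo and 0, 5.45 and 28.6 CPM in Ly6Clo MHCIIlo. The MHCIIhi populations overlapped almost fully, with 1 of 16 replicates of Ly6Clo MHCIIhi above the highest of Ly6Chi MHCIIhi. Their log2 fold change was 0.54 ± 0.34, with a 95% interval of -0.15 to 1.23 (adjusted p = 0.305). Il4i1 was higher in Ly6Clo MHCIIhi than in Ly6Clo MHCIIlo by a log2 fold change of 2.96 ± 0.45 (adjusted p = 1.22e-05) and than in Ly6Chi MHCIIlo by 2.15 ± 0.35 (adjusted p = 9.99e-06). It was also higher in Ly6Chi MHCIIhi than in Ly6Chi MHCIIlo, by 1.76 ± 0.40 (adjusted p = 0.0169), a call lost without Ly6Chi MHCIIhi ctrl replicate 4 at the same log2 fold change of 1.76 (adjusted p = 0.0811). Between the MHCIIlo populations Il4i1 was under the count filter, so its adjusted p-values against either of them are a description.

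Ramp3, the adrenomedullin receptor partner, had the same order by MHC class II. Its lowest, median and highest levels were 62.3, 129 and 218 CPM in Ly6Clo MHCIIhi and 25.0, 88.9 and 157 CPM in Ly6Chi MHCIIhi. They were 19.1, 33.6 and 39.0 CPM in Ly6Clo MHCIIlo and 13.8, 28.9 and 40.6 CPM in Ly6Chi MHCIIlo. Each replicate of Ly6Clo MHCIIhi lay above every MHCIIlo replicate, while the MHCIIhi populations overlapped. Ramp3 in Ly6Clo MHCIIhi exceeded Ly6Clo MHCIIlo by a log2 fold change of 2.06 ± 0.24 (adjusted p = 1.83e-07) and Ly6Chi MHCIIlo by 2.11 ± 0.22 (adjusted p = 4.95e-09). In Ly6Chi MHCIIhi it exceeded Ly6Chi MHCIIlo by 1.76 ± 0.25 (adjusted p = 0.000413) and Ly6Clo MHCIIlo by 1.68 ± 0.26 (adjusted p = 8.01e-05). Between the MHCIIhi populations the log2 fold change was 0.30, with an interval of -0.17 to 0.77 (adjusted p = 0.422). Between the MHCIIlo populations Ramp3 was under the count filter, so its adjusted p-values against either of them are a description.

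Tbc1d4, the Rab regulator, followed Ly6C in place of MHC class II. It had a lowest level of 0, a median of 27.6 and a highest of 58.2 CPM in Ly6Clo MHCIIhi and 16.5, 47.2 and 68.3 CPM in Ly6Clo MHCIIlo. In Ly6Chi MHCIIhi it had 0, 3.59 and 16.7 CPM, and in Ly6Chi MHCIIlo 0, 7.67 and 13.4 CPM. All 8 replicates of Ly6Clo MHCIIlo lay above every replicate of Ly6Chi MHCIIlo. Tbc1d4 in Ly6Clo MHCIIhi had a log2 fold change of 2.90 ± 0.51 over Ly6Chi MHCIIhi (adjusted p = 0.00014) and 2.21 ± 0.35 over Ly6Chi MHCIIlo (adjusted p = 7.25e-06). In Ly6Clo MHCIIlo it was 2.65 ± 0.43 over Ly6Chi MHCIIlo (adjusted p = 2.79e-05). Between the Ly6Chi populations Tbc1d4 was under the count filter, so it entered these tests through its level in the Ly6Clo populations. These adjusted p-values are a description. Between the Ly6Clo populations the log2 fold change of MHCIIhi over MHCIIlo was -0.43, with an interval of -0.99 to 0.13 (adjusted p = 0.253).

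**Figure D2:**
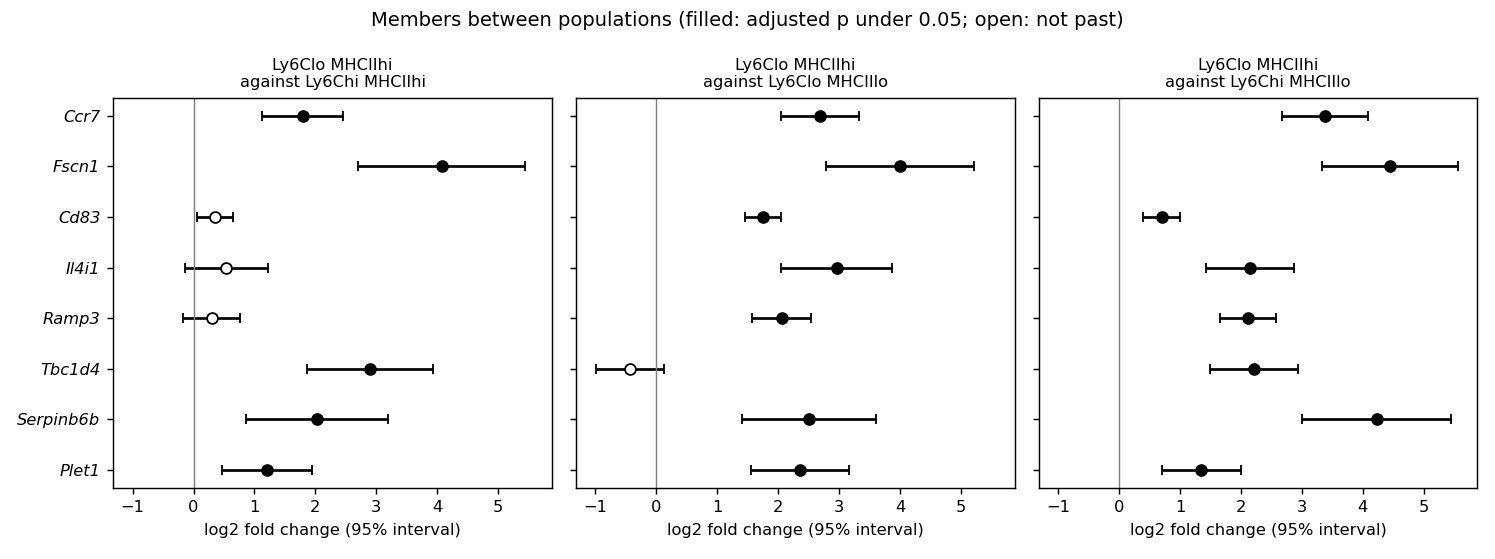
Log2 fold change of each gene in Ly6Clo MHCIIhi against the 3 other populations, with 95% intervals from edgeR's fit; filled points passed at an adjusted p under 0.05. Cd83, Il4i1 and Ramp3 lie between 0.30 and 0.54 against Ly6Chi MHCIIhi and are open there, and Tbc1d4 is open against Ly6Clo MHCIIlo at -0.43.

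The comparisons without Ly6Clo MHCIIhi held fewer members that passed the count filter. In Ly6Chi MHCIIhi against Ly6Chi MHCIIlo, 5 were tested and 3 were higher (Ccr7, Il4i1 and Ramp3), where 1.32% of 4756 genes were higher, 1.66% lower and 2.99% called in either direction. These 3 were under the count filter between the MHCIIlo populations. They entered this comparison through their level in Ly6Chi MHCIIhi, so their calls are a description. The count of genes called, 142, was 67 without Ly6Chi MHCIIhi ctrl replicate 4, 88 without Ly6Chi MHCIIhi ko replicate 2, 94 without Ly6Chi MHCIIlo ko replicate 4 and 218 without Ly6Chi MHCIIhi ctrl replicate 1. In Ly6Clo MHCIIlo against Ly6Chi MHCIIlo, 2 were tested. Tbc1d4 was higher there, and Cd83 was lower by a log2 fold change of -1.002 ± 0.18 (adjusted p = 7.75e-05), where 18.3% of 4336 genes were higher, 18.9% lower and 37.2% called in either direction. In Ly6Chi MHCIIhi against Ly6Clo MHCIIlo, 4 were tested, and all were called, where 12% of 4175 genes were higher, 11.3% lower and 23.3% called in either direction. Ccr7, Cd83 and Ramp3 were higher in Ly6Chi MHCIIhi, and Tbc1d4 was lower, by -3.12 ± 0.59 (adjusted p = 0.00067). Of these, Cd83 alone passed the count filter in every comparison. The calls of Ccr7, Ramp3 and Tbc1d4 in the comparisons without Ly6Clo MHCIIhi are a description.

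Within samples labelled ko alone, 2 of the 6 members tested were called in Ly6Clo MHCIIhi against Ly6Chi MHCIIhi, where 17.5% of 4564 genes were called. Within samples labelled ctrl alone, 0 of 6 were called, where 1.46% of 4180 genes were called. The log2 fold change of Ccr7 was 1.54 in ctrl samples alone, and that of Plet1 was 1.93. In these samples Fscn1 had 172 of 3747660 counts in Ly6Clo MHCIIhi and 0 of 355965 in Ly6Chi MHCIIhi. Sample barcodes were classed by whether at least 4 of their 6 bases are A or T. In the 3 populations other than Ly6Clo MHCIIhi, all libraries labelled ctrl reach that number and all labelled ko fall short of it. Genotype and barcode class cannot be told apart there. With barcode class in the model, where Ly6Clo MHCIIhi let it be fitted, the counts of members called were 5, 7 and 8 over Ly6Chi MHCIIhi, Ly6Clo MHCIIlo and Ly6Chi MHCIIlo. That fit took each library as its own sample, so 8 replicates of Ly6Clo MHCIIhi entered with 2 libraries each and its p-values are too small. The share of all genes called in that fit is not given here, so its counts of members are a description.

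Markers of other cells also moved with the gates. The summed level of 10 macrophage markers ran from 19294 to 49864 CPM in Ly6Clo MHCIIhi, against 7110 to 14321 CPM in Ly6Chi MHCIIhi, 21534 to 40106 CPM in Ly6Clo MHCIIlo and 4327 to 8288 CPM in Ly6Chi MHCIIlo. All 10 were detected in each population. The summed level of 8 monocyte markers ran from 419 to 1786 CPM in Ly6Clo MHCIIhi, 2331 to 6965 CPM in Ly6Chi MHCIIhi, 484 to 1111 CPM in Ly6Clo MHCIIlo and 5481 to 9278 CPM in Ly6Chi MHCIIlo. The 8 neutrophil markers summed to 334 to 1720 CPM in Ly6Clo MHCIIhi, against 5319 to 29901 CPM in Ly6Clo MHCIIlo and 5716 to 15264 CPM in Ly6Chi MHCIIlo. The 6 T cell markers summed to 18.2 to 175 CPM in Ly6Clo MHCIIhi and 152 to 351 CPM in Ly6Chi MHCIIhi. They had 38.2 to 151 CPM in Ly6Clo MHCIIlo and 25.7 to 144 CPM in Ly6Chi MHCIIlo. The 8 B cell markers had at most 72.6, 916, 14.6 and 6.13 CPM in the same order. The part of these cells in the members' levels was not tested.

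Markers of classical dendritic cells, 14 of which are in the table, summed to 764 to 1417 CPM in Ly6Clo MHCIIhi, 400 to 1201 CPM in Ly6Chi MHCIIhi, 683 to 862 CPM in Ly6Clo MHCIIlo and 481 to 926 CPM in Ly6Chi MHCIIlo. The ranges overlapped, and defining members were sparse. Zbtb46, a transcription factor of classical dendritic cells, had 71 counts in Ly6Clo MHCIIhi and 1, 6 and 1 counts in Ly6Chi MHCIIhi, Ly6Clo MHCIIlo and Ly6Chi MHCIIlo. Xcr1, the chemokine receptor of the cross-presenting subset, had 8, 2, 0 and 0 counts in the same order. The populations held 7842035, 1339516, 1556478 and 2380334 counts in all in that order, so these raw counts do not compare directly. Of the 7 classical dendritic cell markers tested in Ly6Clo MHCIIhi against Ly6Chi MHCIIhi, 4 were higher and none was lower, with a median log2 fold change of 0.67, where 8.32% of all genes were higher and 7.42% lower. Against Ly6Clo MHCIIlo, 3 of 6 were higher and none was lower, with a median of 0.74, where 12.5% of all genes were higher and 13% lower. Against Ly6Chi MHCIIlo, 4 of 7 were higher and 1 was lower, with a median of 1.54, where 20.9% were higher and 21.7% lower. Cd209a, a lectin of monocyte-derived and type 2 dendritic cells, was among those higher, by 1.25 ± 0.38 over Ly6Chi MHCIIhi (adjusted p = 0.0225) and 2.04 ± 0.39 over Ly6Clo MHCIIlo (adjusted p = 0.000283). The part of dendritic cell content in the members' levels was not tested.

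Further genes of dendritic cell maturation, 27 in the table, were called in both directions in Ly6Clo MHCIIhi. In Ly6Clo MHCIIhi against Ly6Chi MHCIIhi, 23 were tested, of which 3 were higher, 3 were lower and 17 did not pass, with a median log2 fold change of -0.17, where 8.32% of all genes were higher and 7.42% lower. Against Ly6Clo MHCIIlo, 17 were tested, of which 8 were higher, 1 was lower and 8 did not pass, with a median of 0.68, where 12.5% of all genes were higher and 13% lower. Against Ly6Chi MHCIIlo, 22 were tested, of which 8 were higher and 5 were lower, with a median of 0.30, where 20.9% were higher and 21.7% lower. In Ly6Chi MHCIIhi against Ly6Clo MHCIIlo, 10 of 16 were higher and none was lower, with a median of 0.86, where 12% were higher and 11.3% lower. Ccl22, a chemokine that mature dendritic cells make and that shares the receptor CCR4 with CCL17, had a lowest level of 27.4, a median of 106 and a highest of 227 CPM in Ly6Clo MHCIIhi. Its highest level was 16.7 CPM in Ly6Chi MHCIIhi, 27.3 CPM in Ly6Clo MHCIIlo and 13.8 CPM in Ly6Chi MHCIIlo, and no population overlapped Ly6Clo MHCIIhi. Ccl22 had a log2 fold change of 3.89 ± 0.54 over Ly6Chi MHCIIhi (adjusted p = 8.36e-06) and 3.72 ± 0.50 over Ly6Clo MHCIIlo (adjusted p = 1.92e-06). Tmem123, a surface protein, was also higher in both, by 0.70 ± 0.18 and 0.68 ± 0.14.

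Other maturation genes went down or changed sign between comparisons. Cd80, the costimulatory ligand of CD28, was lower in Ly6Clo MHCIIhi than in Ly6Chi MHCIIhi by -1.12 ± 0.27 (adjusted p = 0.00504), and Nfkb2, an NF-kB subunit, by -0.76 ± 0.20 (adjusted p = 0.00936). Traf1, an adaptor of TNF receptors, averaged 609 ± 191 CPM in Ly6Clo MHCIIhi, between 1005 ± 347 CPM in Ly6Chi MHCIIhi and 277 ± 92.7 CPM in Ly6Clo MHCIIlo (SD, n = 16, 7 and 8). It was lower than in Ly6Chi MHCIIhi by -0.75 ± 0.20 (adjusted p = 0.0104) and higher than in Ly6Clo MHCIIlo by 1.15 ± 0.19 (adjusted p = 4.68e-05). Il4ra, the interleukin-4 receptor chain, was higher than in Ly6Clo MHCIIlo by 0.66 ± 0.13 (adjusted p = 0.00058).

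Of the further migration genes, 13 were tested against Ly6Chi MHCIIhi, and 3 were lower and none higher in Ly6Clo MHCIIhi, where 7.42% of all genes were lower and 8.32% higher. The 3 lower genes were Ccr2, the receptor of monocyte recruitment, at -1.08 ± 0.24 (adjusted p = 0.00211), Adam8, a membrane protease, at -0.83 ± 0.16 (adjusted p = 0.000623), and Itgb7, an integrin chain of gut homing, at -0.78 ± 0.22 (adjusted p = 0.0122). Against Ly6Clo MHCIIlo, 14 were tested, of which 1 was higher and 2 were lower, and 25.5% of all genes were called in either direction. Against Ly6Chi MHCIIlo, 2 of 14 were higher and 7 were lower, where 20.9% of all genes were higher and 21.7% lower. Over Ly6Clo MHCIIlo, Icam1, an adhesion ligand, was higher at 0.58 ± 0.13 (adjusted p = 0.001), and Adam8 was among the lower genes at -1.15 ± 0.15 (adjusted p = 1.09e-06).

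Relatives of the members were also followed. Ramp1, the partner that makes the receptor for calcitonin gene-related peptide, was lower in Ly6Clo MHCIIhi than in Ly6Chi MHCIIhi by -0.77 (adjusted p = 0.0199) and higher than in Ly6Clo MHCIIlo by 1.00 (adjusted p = 0.00646). Serpinb2, which inhibits plasminogen activators, was lower in Ly6Clo MHCIIhi by -2.46 and -2.96 in the same comparisons (adjusted p = 0.000119 and 4.83e-06). Serpinb6a, the nearest named relative of Serpinb6b in the list, was lower than in Ly6Clo MHCIIlo by -1.35 (adjusted p = 1.9e-05). Tbc1d10a and Tbc1d1 did not pass in either comparison. Ackr4, which scavenges the CCR7 ligands, had 1 count over all 39 replicates, and Ccl19 and Ccl21a were not analysed here.

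**Figure D3:**
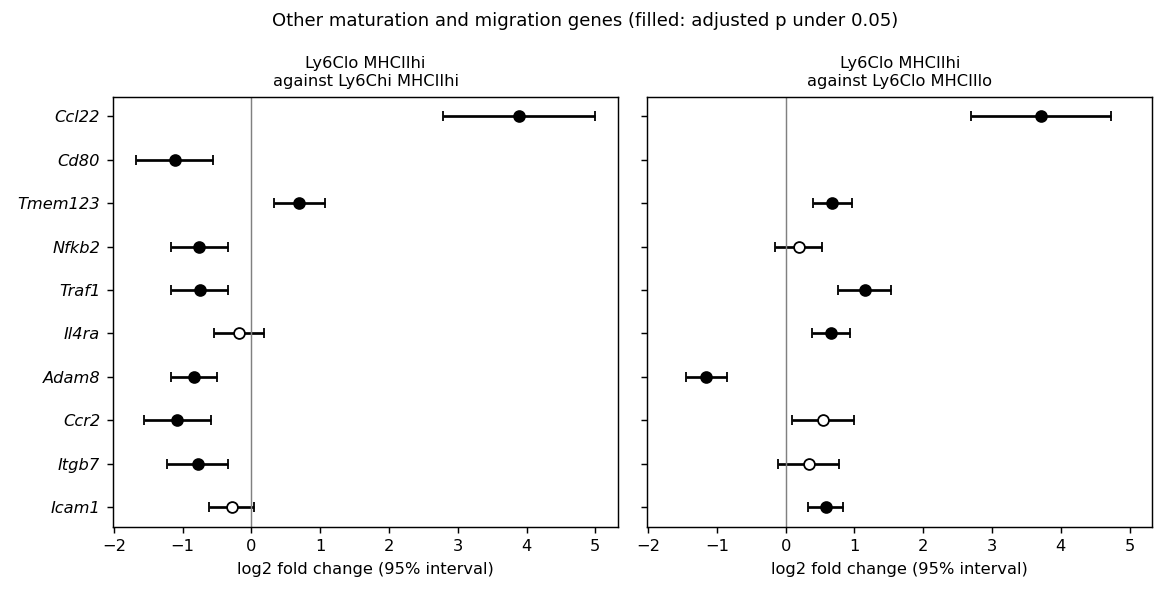
Log2 fold change with 95% interval of further maturation and migration genes in Ly6Clo MHCIIhi against Ly6Chi MHCIIhi (left) and Ly6Clo MHCIIlo (right); filled points passed at an adjusted p under 0.05. Ccl22 is high in both, and Traf1 lies at -0.75 on the left and 1.15 on the right.

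The design's main question is what the loss of Ccl17 does, and no member passed the test between ko and ctrl in any population. With edgeR's test, 0 of the 8 members tested were called in Ly6Clo MHCIIhi, 0 of 4 in Ly6Chi MHCIIhi, 0 of 2 in Ly6Clo MHCIIlo and 0 of 1 in Ly6Chi MHCIIlo. The share of all genes called was 0%, 0%, 0.0314% and 0.0756% in that order. With the count filter, no member had an unadjusted p under 0.05 in any of the 4, and DESeq2 called 0 as well. With no count filter, Plet1 in Ly6Clo MHCIIhi had an unadjusted p of 0.0228 (log2 fold change -0.44, adjusted p = 0.648) and Ramp3 in Ly6Chi MHCIIhi one of 0.0313 (0.97, adjusted p = 0.77), both from edgeR's fit. Leaving out 1 replicate, the genes called in Ly6Chi MHCIIhi numbered 28 without ctrl replicate 4, 5 without ctrl replicate 1 and 0 otherwise, with no member among them. The ranges of ko and ctrl overlapped in 32 of 32 pairs of member and population. The share of overlapping ranges over all genes is not given here, so this count is a description. The interaction of population and genotype was called for 0 of the 8, where 0.0663% of 6032 genes were called, and no member had an unadjusted p under 0.05 there.

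In Ly6Clo MHCIIhi the intervals limit how large a difference could be. Ccr7 had a lowest level of 93.9, a median of 143 and a highest of 277 CPM in ko replicates, against 63.2, 219.9 and 306 CPM in ctrl replicates. The log2 fold change was -0.22, with a 95% interval of -0.77 to 0.33. Cd83 had 800.0, 997 and 1502 CPM in ko replicates, against 819, 1217 and 1595 CPM in ctrl replicates. With 7 of 8 ko replicates under the ctrl mean, its log2 fold change was -0.25 (-0.55 to 0.06, adjusted p = 0.952). Plet1 had 26.9, 59.6 and 86.9 CPM in ko replicates and 18.2, 69.4 and 139 CPM in ctrl replicates, with a log2 fold change of -0.46 (-1.03 to 0.11, adjusted p = 0.952).

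The other members of Ly6Clo MHCIIhi had log2 fold changes nearer to 0. For ko against ctrl it was 0.01 for Fscn1 (-0.61 to 0.64), -0.19 for Il4i1 (-0.77 to 0.39) and 0.09 for Ramp3 (-0.35 to 0.53). It was -0.05 for Tbc1d4 (-0.59 to 0.49) and 0.02 for Serpinb6b (-0.67 to 0.70). With barcode class in the model and each library as its own sample, the 8 log2 fold changes ran from -0.44 for Plet1 to 0.11 for Ramp3. In the summed level of classical dendritic cell markers, the ko replicates ran from 782 to 1329 CPM and the ctrl replicates from 764 to 1417 CPM.

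**Figure D4:**
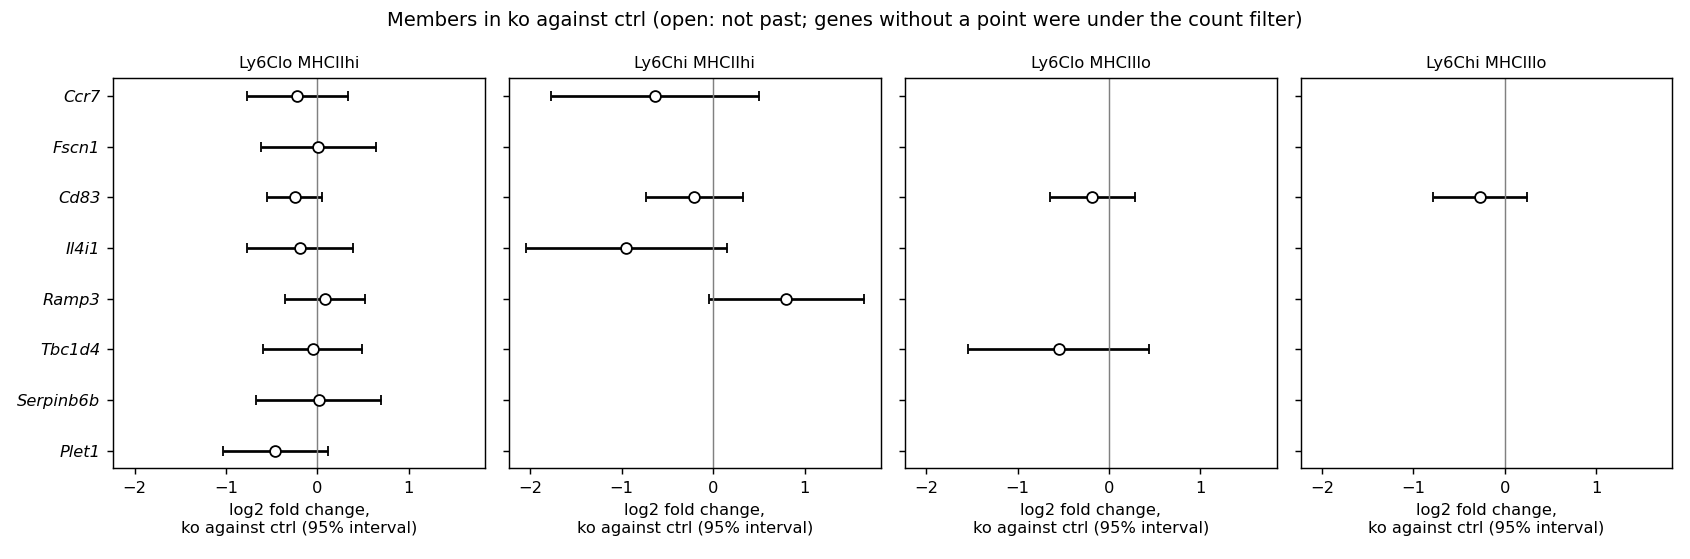
Log2 fold change of ko against ctrl with 95% interval in each population, for the members that passed the count filter; every point is open, since none passed at an adjusted p under 0.05. In Ly6Chi MHCIIhi, Ramp3 lies at 0.80 and Il4i1 at -0.95 with intervals that include 0.

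In Ly6Chi MHCIIhi, Ramp3 had 104, 157, 87.5 and 146 CPM in the 4 ko replicates, against 50.0, 25.0 and 88.9 CPM in the 3 ctrl replicates. All 4 ko replicates lay above the ctrl mean, and the ranges met only at the lowest ko and the highest ctrl replicate. The log2 fold change was 0.80 ± 0.39, with an interval of -0.05 to 1.65 (adjusted p = 0.709), with 0.71 without ctrl replicate 1 and 1.46 without ctrl replicate 4 (adjusted p = 0.235). Il4i1 had 25.2, 50.1, 31.8 and 38.5 CPM in ko replicates, against 16.7, 125 and 72.0 CPM in ctrl replicates, and the ko replicates lay inside the ctrl range. Its log2 fold change was -0.95 ± 0.50, with an interval of -2.05 to 0.15 (adjusted p = 0.709).

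Ccr7 in Ly6Chi MHCIIhi had 32.3, 68.0, 47.7 and 34.7 CPM in ko replicates, against 99.9, 100.2 and 42.3 CPM in ctrl replicates. The high ctrl values came from replicates 1 and 3, which rest on 6 and 4 counts of Ccr7. Their T cell markers summed to 283 and 351 CPM, where the other replicates of that population had 152 to 285 CPM. Their B cell markers summed to 916 and 50.1 CPM, where the others had 0 to 53.7 CPM. The part of these cells in Ccr7 was not tested. The log2 fold change was -0.64 ± 0.52 (adjusted p = 0.804), with -0.26 without ctrl replicate 1 and -1.31 without ctrl replicate 4. It stood at 0.10 when libraries under 100000 counts were left out, which leaves 1 ctrl replicate that is assumed to vary like the ko group. Cd83 was at -0.21 in that population (-0.74 to 0.33), at -0.18 in Ly6Clo MHCIIlo (-0.65 to 0.29) and at -0.27 in Ly6Chi MHCIIlo (-0.79 to 0.24). Tbc1d4 had 17.0, 68.3, 39.9 and 16.5 CPM in the ko replicates of Ly6Clo MHCIIlo, against 66.8, 54.6, 61.9 and 20.8 CPM in the ctrl replicates. Its log2 fold change there was -0.55, with an interval of -1.54 to 0.44 (adjusted p = 0.999).

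The members varied from replicate to replicate in Ly6Clo MHCIIhi, and not all together. Of the 8 replicates with 2 libraries, the larger level over the smaller had a median of 1.10 for Cd83, 1.24 for Ccr7 and 1.63 for Serpinb6b, which gives the spread between libraries of one replicate. Over the 14 replicates with at least 100000 counts, Pearson's r of log2(CPM + 1) for the 28 pairs of members ran from -0.26 to 0.81 with a median of 0.41. The highest value was Ccr7 with Fscn1 (0.81) and the lowest Fscn1 with Cd83 (-0.26), while Cd83 with Il4i1 stood at 0.65. Over all 16 replicates the values ran from -0.01 to 0.86 with a median of 0.33, and Fscn1 with Il4i1 stood at 0.86 there and at 0.23 over the 14. These are descriptions of replicates that mix both genotypes and differ in depth.

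**Figure D5:**
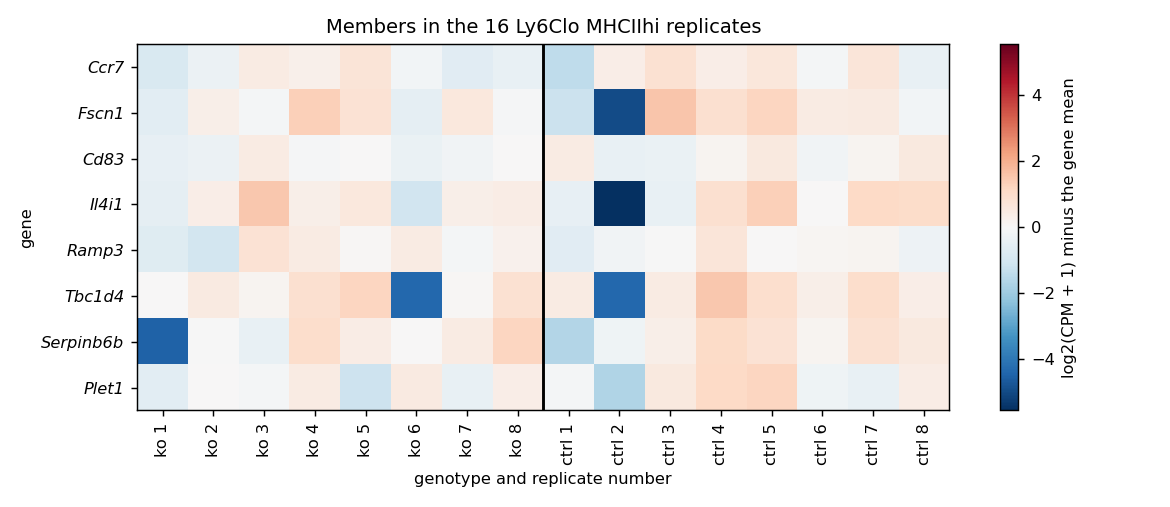
Heat map of log2(CPM + 1) minus the gene's mean over the 16 replicates of Ly6Clo MHCIIhi, ko left of the black line and ctrl right of it; red is above and blue below the mean. The 5 darkest blue cells are replicates with no count of that gene, in ko replicates 1 and 6 and ctrl replicate 2.

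Genes most like Ccr7 were sought by Pearson's r of log2(CPM + 1) over genes that average at least 20 CPM. Across the 16 replicates of Ly6Clo MHCIIhi, of 5644 genes searched, Anxa2 (0.91), S100a11 (0.91), Traf1 (0.83), S100a10 (0.82) and Ahnak (0.82) were nearest. Without the 2 replicates farthest from the median of Ccr7 these values were 0.65 to 0.84. Across all 39 replicates, of 5724 genes, the nearest were Cd74 (0.83), Klrb1b (0.80), Cd209a (0.79), Ccl22 (0.78) and Ccnd2 (0.78). The second list rests on 4 populations that differ in Ccr7, and Cd74, the invariant chain of MHC class II, marks the gate itself.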

How the data were processed

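RNA of the sorted cells was read by bulk sequencing of 3′ ends, per the labels' protocols. The table that the authors deposited holds raw counts by gene symbol, with 1 column for each library. The submitters' processing notes name GRCm38, R 3.4.4 and DESeq2 1.18.1. The sources used here name no aligner or counting tool and do not say whether reads or molecular identifiers were counted. The intervals of count ratios cover counting error only, and they take each count as a separate molecule. The intervals of log2 fold changes are from edgeR's fit and include the spread between replicates. A row that names no gene ("z", 127 counts, 0.000967% of the total) was removed.

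Libraries under 0.1 of the median total (280062.5 counts) were left out and the libraries of a replicate were summed. The 2 libraries of a replicate differed by a chi-square per degree of freedom of 1.77 to 2.96 in 8 pairs, against 1.86 to 29.2 in 157 pairs of different replicates. CPM is the count per 1000000 of a replicate's total, with that total multiplied by its TMM scaling factor. The levels of single libraries within a replicate used the plain total. Tests used edgeR 4.0.16 (TMM scaling, filterByExpr at min.count 10 and min.total.count 15, quasi-likelihood F test, R 4.3.3), with Benjamini-Hochberg adjustment over all genes kept and a threshold of 0.05. Population comparisons had genotype in the model. DESeq2 1.42.0, other scalings and filters, other library choices, barcode class, 1 genotype alone, a replicate block and leaving out each replicate were the alternatives. Ratios of counts carry exact 95% intervals. The genes, the related genes and the markers were chosen with earlier results of these data known. The related genes named are, per list, up to 4 past the threshold with the smallest p in each comparison, or 2 where none passed; a gene that this rule also names is not reported here. Motifs were searched in RefSeq promoters of GRCm38.p6.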

Additional observations from a re-analysis of the deposited data

Results flagged for a closer look

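Of 56 sets of replicates examined, 1 per gene, population and genotype where there were at least 4, 4 held a replicate far from the others by Dixon's criterion. Chance gives about 1 in 20 for continuous, normally distributed values. That rate does not apply to sets of a few counts, where 1 count beside values of 0 is always flagged. Cd83 in Ly6Clo MHCIIhi ko replicate 3 stood at 1502 CPM, and the other 7 ko replicates had 800.0 to 1120.2 CPM. Il4i1 in the same replicate stood at 133 CPM, and the other 7 had 21.7 to 69.5 CPM. Fscn1 in Ly6Clo MHCIIlo ko replicate 1 stood at 5.67 CPM on 1 count, and the other 3 had 0. Tbc1d4 in Ly6Chi MHCIIlo ctrl replicate 4 stood at 3.80 CPM on 1 count, and the other 3 had 9.21 to 10.1 CPM.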

How the results depend on the processing

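The count of members called was 0 for ko against ctrl in each population under all alternatives run. Within samples labelled ctrl alone, the count was 0 of 6 tested for Ly6Clo MHCIIhi against Ly6Chi MHCIIhi (5 with both genotypes), 0 of 1 for Ly6Chi MHCIIhi against Ly6Chi MHCIIlo (3), 1 of 1 for Ly6Clo MHCIIlo against Ly6Chi MHCIIlo (2) and 1 of 2 for Ly6Chi MHCIIhi against Ly6Clo MHCIIlo (4). Within samples labelled ko alone it was 2 of 6, 1 of 2, 1 of 1 and 2 of 2 in that order. Of all genes tested, 1.46%, 0%, 21.4% and 0.978% were called with ctrl alone in that order. With ko alone the shares were 17.5%, 1.78%, 25.1% and 25%. Both fits hold fewer samples and fewer members past the count filter. Leaving out 1 replicate gave 4 to 5 members in the first of these comparisons, 1 to 3 in the second, 2 in the third and 3 to 4 in the fourth, and 6 to 7 and 8 for Ly6Clo MHCIIhi against Ly6Clo MHCIIlo and Ly6Chi MHCIIlo. The count of 1 came without Ly6Chi MHCIIhi ctrl replicate 4 or ko replicate 2. In the fits with 1 replicate left out, all genes called numbered 687 to 1004, 67 to 218, 1552 to 1699 and 768 to 1260 in the first 4 comparisons. They numbered 1077 to 1336 and 2288 to 2529 in the last 2. These counts of members are a description.

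Whether same-numbered replicates are paired is not labelled, and the main tests took them as unpaired. Correlations of deviations between same-numbered replicates ran from -0.107 to 0.233, and in no comparison were all pairs over 0.1. All pairs were positive in Ly6Chi MHCIIhi against Ly6Chi MHCIIlo (0.0266 to 0.182) and against Ly6Clo MHCIIlo (0.00736 to 0.0641). The same held in Ly6Clo MHCIIlo against Ly6Chi MHCIIlo (0.0174 to 0.194), while every other comparison had negative values too. These values cannot decide whether the samples are paired. With the replicate block, 3 members were called in Ly6Clo MHCIIhi against Ly6Chi MHCIIhi, where 9.3% of all genes tested were called. All genes called numbered 431 there (872 without the block), 717 against Ly6Clo MHCIIlo (1228) and 4 for ko against ctrl in Ly6Clo MHCIIlo (1).

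Signs turned for values that passed no test, and the cause was not tested. For ko against ctrl in Ly6Clo MHCIIhi, Fscn1 was at -0.089 with DESeq2, -0.014 without libraries under 100000 counts, -0.246 with the first library only, -0.012 with all 8 groups in 1 fit, -0.023 with barcode class and -0.12 with the block. Serpinb6b was at -0.069, -0.011, -0.16 and -0.17 with DESeq2, all 8 groups, barcode class and the block. In Ly6Chi MHCIIhi, Cd83 was at 0.015 with no count filter and Ccr7 at 0.10 without libraries under 100000 counts (-0.64 with them). Plet1 in Ly6Chi MHCIIhi against Ly6Chi MHCIIlo was at -0.069 with all 8 groups. Leaving out 1 replicate gave -0.22 to 0.21 for Fscn1, -0.035 to 0.20 for Ramp3, -0.21 to 0.042 for Tbc1d4 and -0.16 to 0.13 for Serpinb6b in Ly6Clo MHCIIhi, -0.30 to 0.014 for Cd83 in Ly6Chi MHCIIhi, and -0.11 to 0.19 for Plet1 in that population comparison.

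Over all genes, ko against ctrl called 0.254%, 0.694%, 0.138% and 0.341% of the genes with no count filter in Ly6Clo MHCIIhi, Ly6Chi MHCIIhi, Ly6Clo MHCIIlo and Ly6Chi MHCIIlo (0%, 0%, 0.0314% and 0.0756% with it; 0, 0 to 28, 0 to 6 and 0 to 7 genes when 1 replicate was left out), and DESeq2 called 4, 2 and 14 in the last 3. With all 8 groups in 1 fit the counts were 2, 33 and 0 in the first 3, and without libraries under 100000 counts 4 in the second. The interaction called 11 genes with DESeq2, 112 with no filter, 1 with all libraries kept and 0 without libraries under 100000 counts (4). Ly6Chi MHCIIhi against Ly6Chi MHCIIlo called 303 genes with no filter and 304 with all 8 groups (142). With ctrl alone, 61, 326, 1262, 0, 767 and 32 genes were called for Ly6Clo MHCIIhi against Ly6Chi MHCIIhi, Ly6Clo MHCIIlo and Ly6Chi MHCIIlo, then Ly6Chi MHCIIhi against Ly6Chi MHCIIlo, Ly6Clo MHCIIlo against Ly6Chi MHCIIlo, and Ly6Chi MHCIIhi against Ly6Clo MHCIIlo; with ko alone, 597, 1499, 66 and 872 for the second to the fifth.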

Other observations

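In Ly6Clo MHCIIlo against Ly6Chi MHCIIlo, 16 of the further maturation genes were tested, of which 2 were higher, 7 were lower and 7 did not pass, with a median log2 fold change of -0.50, where 18.3% of all genes were higher and 18.9% lower. Of 14 migration genes tested there, 2 were higher and 6 were lower, with a median of -0.36. In the same comparison 8 of 10 macrophage markers were higher and 8 of 8 monocyte markers were lower, and the part of these cells in the lists' values was not tested.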
